A study of Mus musculus with 8 samples.

Results

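The genes described here are CD44 and 7 genes that make, cut or bind hyaluronan: Has1, Has2, Has3, Hyal1, Hyal2, Tnfaip6 and Hmmr. These 8 were picked by name from the 21878 genes of the deposited expression table, with earlier results of these data known. RNA was sequenced from wild-type (C57BL/6) mouse brain astrocytes isolated on postnatal day 0, in 4 libraries made after a cocktail of the cytokines IL-1α and TNFα with complement C1q, and in 4 libraries of cells with no treatment. The cocktail is a way to obtain reactive astrocytes that carry the complement fragment C3d. The labels give no dose or duration of the cocktail and no purity of the cultures. Values are FPKM, fragments scaled to the length of the gene and the depth of the library, which can be compared between genes as levels per length.

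Hyaluronan is a long unbranched sugar chain of the brain's extracellular matrix. Hyaluronan synthases in the plasma membrane spin it out of the cell from UDP-glucuronic acid and UDP-N-acetylglucosamine. Hyaluronidases and other depolymerases cut it into shorter pieces. CD44 is its best known cell surface receptor, and TSG-6, the product of Tnfaip6, tethers proteins to it in inflamed tissue. RHAMM, the product of Hmmr, binds hyaluronan and also works at the mitotic spindle.

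Cells given the cocktail had 6.32 times the Cd44 RNA and 8.92 times the Has2 RNA of untreated cells in mean FPKM. Hmmr was 3.12-fold lower and Hyal1 1.30-fold lower in cocktail-treated cells. Hyal2 and Tnfaip6 differed by less, with overlapping groups, and Has1 and Has3 were at or near 0. The order of levels in cocktail-treated cells was Cd44, Hyal2, Hyal1, Hmmr, Has2, Tnfaip6, Has3 and Has1, of which the neighbours Hmmr and Has2 overlapped. In untreated cells Hmmr stood above Tnfaip6, and Tnfaip6 above Has2, while the neighbours Hyal2 and Hyal1 overlapped.

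RefSeq's promoter table for GRCm38.p6, the assembly that mm10 names, held 6 of the 8 genes, and Has2 and Has3 had no entry. The 250 bases before the table's start of 3 genes are shown, because these are the gene with the largest rise on the log2 scale of the test, the mitotic member that fell, and the member whose call was least stable. The start used for Hyal2 lies inside the span of the gene given below, and its window is not shown. The starts used for Cd44 and Hmmr lie just inside the spans of these genes. Capitals mark matches, on either strand, to 4 motifs: the NF-kB consensus, TGANTCA (the AP-1 site), CCAAT (the NF-Y box, ATTGG on the other strand) and TTTGAA (the cell cycle homology region, TTCAAA on the other strand). The windows lie at chr2:102901666-102901915 on the minus strand for Cd44, chr11:40733438-40733687 on the minus strand for Hmmr and chr2:52037863-52038112 on the plus strand for Tnfaip6.
Cd44: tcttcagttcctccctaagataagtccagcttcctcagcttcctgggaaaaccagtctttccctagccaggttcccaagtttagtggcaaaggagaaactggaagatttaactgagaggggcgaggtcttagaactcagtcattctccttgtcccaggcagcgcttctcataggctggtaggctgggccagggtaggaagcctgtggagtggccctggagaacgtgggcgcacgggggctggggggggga
Hmmr: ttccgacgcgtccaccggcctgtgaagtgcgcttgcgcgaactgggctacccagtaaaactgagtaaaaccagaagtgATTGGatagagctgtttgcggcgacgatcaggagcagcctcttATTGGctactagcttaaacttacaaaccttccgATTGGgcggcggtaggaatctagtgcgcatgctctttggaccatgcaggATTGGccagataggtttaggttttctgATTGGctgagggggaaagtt
Tnfaip6: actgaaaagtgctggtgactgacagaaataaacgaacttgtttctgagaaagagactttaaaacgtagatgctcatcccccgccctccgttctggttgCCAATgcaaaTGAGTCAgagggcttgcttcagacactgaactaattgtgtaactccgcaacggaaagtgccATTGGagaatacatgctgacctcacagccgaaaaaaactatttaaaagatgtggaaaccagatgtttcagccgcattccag

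The Hmmr window held 5 CCAAT boxes, all on the strand opposite to the gene. Of the 32851 RefSeq windows of this length 33.8% held at least 1 CCAAT box on either strand. At least 2 were held by 10.1% of windows and at least 5 by 0.213%. Tnfaip6 had 2 CCAAT boxes and 1 TGANTCA match, TGAGTCA, which lay 142 to 136 bases before the start. TGANTCA occurred in 6.75% of all windows. The NF-kB consensus, found in 3.90% of windows, was in none of the 3 shown. The Cd44 window held none of the 4 motifs, which says only that these letters are not in these 250 bases. TTTGAA, present in 16.0% of windows, was found in none of the 3 windows shown. Among the windows not shown, that of Hyal2 held an NF-kB match and that of Has1 a TTTGAA match. A match describes letters and is not a measured binding site.

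Depth lay between 19195898 and 20640490 fragments per library, recovered from the FPKM values. All 10 astrocyte markers were detected, with summed levels of 1213 to 1242 FPKM in cocktail libraries and 1396 to 1551 FPKM in untreated libraries. Over all genes, limma on log2(FPKM + 1) called 67.7% of 11845 tested genes at an adjusted p under 0.05 (two-sided, Benjamini-Hochberg), 26.6% as higher and 41.1% as lower. Of the 10 astrocyte markers, all tested, 2 were called higher and 7 lower. S100b, among the 7, entered the test only through the untreated libraries. Slc1a2 was 5.37-fold higher in cocktail-treated cells, and Aldoc and Gfap were 3.03- and 2.18-fold lower. Libraries were also rescaled by median ratios, which made 51.8% of the calls rises, against 39.3% as deposited. Cocktail libraries 3 and 4 held more RNA of microglial markers, with summed levels of 80.3 and 103 FPKM over 18 genes, than cocktail libraries 1 and 2 with 48.1 and 47.6 FPKM or untreated libraries with 52.4 to 54.0 FPKM. Of the 18 genes 11 were tested, 5 called higher and 1 lower, and none was at 0 in every library. Summed markers of neurons were 50.4 to 57.4 FPKM in cocktail libraries and 139 to 157 FPKM in untreated libraries, those of the oligodendrocyte lineage 94.1 to 98.8 FPKM in cocktail and 166 to 175 FPKM in untreated libraries, and those of ependyma 73.3 to 86.6 FPKM in cocktail and 129 to 144 FPKM in untreated libraries. Endothelial markers summed to at most 3.19 FPKM in cocktail libraries and 6.04 FPKM in untreated libraries. Cldn5 of endothelium and Mog of oligodendrocytes were listed at 0 in all 8 libraries. The part of these cells in the results below was not tested. In bulk RNA fewer cells of a type and less RNA per cell cannot be told apart. The labels do not say whether the 4 libraries of a group came from separate cultures, so that p-values measure the spread between libraries, which may be technical.

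Of the 8 genes, 6 entered the test, for which 4 or more of the 8 libraries had to reach 1 FPKM. Has1 and Has3 did not pass, and Has2 passed through its 4 cocktail libraries alone. Of the 6, 3 were called higher and 3 lower, and 4 had groups that did not overlap, against 62.7% of all tested genes. With such a background, being called says little about a gene, and the sizes of the changes carry the description.

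**Figure D1:**
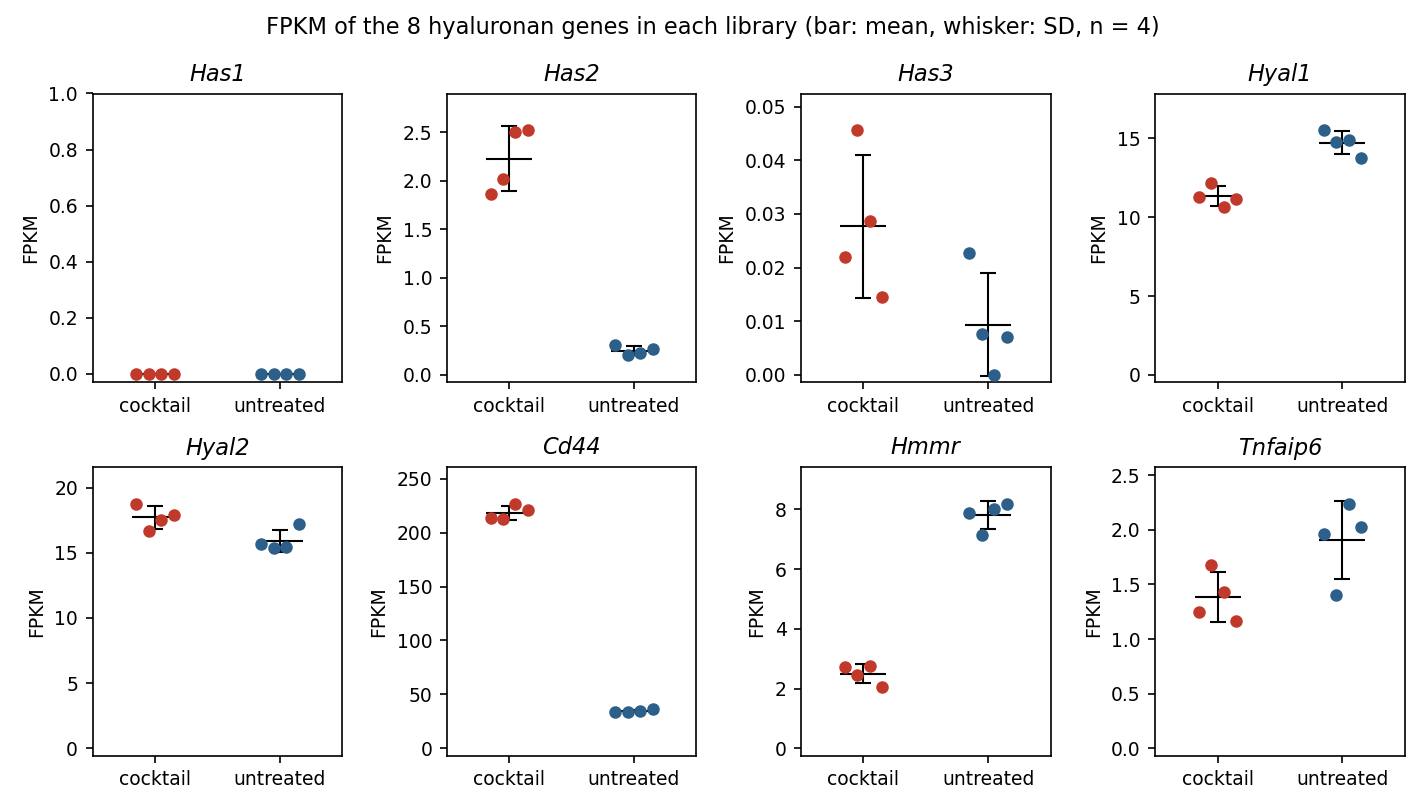
FPKM (linear axes, each gene on its own scale) of the 8 genes in 4 cocktail and 4 untreated libraries. Points are libraries, the bar is the mean and the whisker the SD (n = 4 in each group). Cd44 and Has2 sit higher and Hyal1 and Hmmr lower in cocktail libraries with no overlap, while Hyal2, Tnfaip6 and Has3 overlap and Has1 is at 0 in all.

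Of the 3 synthases, only Has2 entered the test. Has2, the main synthase of developing tissues, lies on chromosome 15 from 56665627 to 56694546 of GRCm38. It had 1.86, 2.01, 2.50 and 2.52 FPKM in cocktail libraries 1 to 4, against 0.304, 0.209, 0.223 and 0.263 FPKM in untreated libraries 1 to 4. Every cocktail library was above every untreated library, and cocktail libraries 3 and 4 were the highest. The mean was 2.23 ± 0.337 FPKM in cocktail libraries and 0.249 ± 0.043 FPKM in untreated libraries (SD, n = 4 each), an 8.92-fold difference.

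Behind these levels stood 159 to 218 fragments per cocktail library and 17 to 25 per untreated library, so that the untreated level is the less precise. Has2 reached the filter only because its cocktail level is high, so the fit without a filter is given for it. That fit takes every gene with a fragment in any library. There its log2 change was 1.36 on the log2(FPKM + 1) scale (SE 0.072, limma adjusted p = 3.8e-07). This scale understates a gene whose untreated level is far below 1 FPKM. On recovered fragments, limma voom without a filter gave a log2 change of 3.21 with a standard error of 0.231 (adjusted p = 1.4e-09). This alternative was added after seeing the data. Has2 was thus of low abundance even after treatment, although its relative rise was the largest of the 8 genes in mean FPKM. RefSeq places an antisense RNA gene, Has2os, within Has2, and it is not known whether the authors' counting used strand.

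Without cocktail libraries 3 and 4, which had the higher microglial sums, the log2 change of Has2 was 1.23. Without libraries 1 and 2 it was 1.49. The part of microglia in the change of Has2 was not tested.

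Has3, a synthase that makes shorter chains in vitro, lies on chromosome 8 from 106870242 to 106882902. It had 0.0219, 0.0456, 0.0287 and 0.0145 FPKM in cocktail libraries 1 to 4, against 0.0227, 0.00766, 0 and 0.00712 FPKM in untreated libraries 1 to 4. These values rest on 15 fragments over all cocktail libraries and 5 over all untreated libraries, and the groups overlapped. An exact two-sided permutation test over the 70 assignments of libraries gave p = 0.086, where the smallest possible p is 0.029. Counts this low do not settle a direction, and limma without the filter gave an adjusted p of 0.19. Only voom without a filter, an alternative added after seeing the data, called Has3 higher, with a log2 change of 1.57 (adjusted p = 0.037).

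Has1, the third synthase, lies on chromosome 17 from 17833691 to 17855589 and was listed at 0 FPKM in all 8 libraries. It overlaps Spaca6 and Gm36907, and Spaca6 had 1.23 to 1.57 FPKM in cocktail libraries and 1.56 to 1.84 FPKM in untreated libraries, so fragments in a shared stretch could have been counted for a neighbour. A count of 0 allows up to 3 fragments in a library, or 0.0727 to 0.0781 FPKM were the gene 2 kb long, as far as counting error goes. With Has1 taken as 0, Has2 held 97.8% to 99.4% of the summed FPKM of the 3 genes in cocktail libraries and 93.0% to 100% in untreated libraries. In untreated libraries what a count of 0 allows is not small beside the level of Has2, so the share there is uncertain. The summed level was 2.25 ± 0.332 FPKM in cocktail libraries and 0.259 ± 0.051 FPKM in untreated libraries (SD, n = 4 each).

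The 2 hyaluronidases moved in opposite directions, both by small amounts. Hyal1 encodes the lysosomal enzyme that cuts hyaluronan to small fragments at acid pH. It had 11.3, 12.2, 10.7 and 11.2 FPKM in cocktail libraries 1 to 4, against 15.5, 14.8, 14.9 and 13.7 FPKM in untreated libraries 1 to 4. The highest cocktail library was below the lowest untreated library. The mean was 11.3 ± 0.636 FPKM in cocktail libraries and 14.7 ± 0.736 FPKM in untreated libraries (SD, n = 4 each). Hyal1 fell by 0.35 on the log2 scale (SE 0.047, limma adjusted p = 3.2e-05), or 1.30-fold in mean FPKM. It lies on chromosome 9 from 107576950 to 107581699 and overlaps Hyal3 and Naa80, so that fragments in the shared stretch could have been counted for a neighbour. Naa80, listed as Nat6, had 19.97 to 20.5 FPKM in cocktail libraries and 22.8 to 24.9 FPKM in untreated libraries.

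Hyal2, anchored in the outer face of the plasma membrane, makes the first cuts in long chains. It had 18.8, 16.7, 17.5 and 17.9 FPKM in cocktail libraries 1 to 4, against 15.7, 15.4, 15.5 and 17.2 FPKM in untreated libraries 1 to 4. Untreated library 4 was above cocktail library 2, so the groups overlapped. Cocktail libraries averaged 17.7 ± 0.876 FPKM and untreated libraries 15.9 ± 0.835 FPKM (SD, n = 4 each). Hyal2 rose by 0.14 on the log2 scale (SE 0.045, limma adjusted p = 0.013), or 1.11-fold. The call was lost without cocktail libraries 3 and 4 (limma, adjusted p = 0.055). It lies next to Hyal1, on chromosome 9 from 107567873 to 107572778.

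Because the genes were read in the same libraries, the level of Hyal1 over that of Hyal2 does not depend on how libraries are scaled. This ratio was 0.602, 0.731, 0.607 and 0.623 in cocktail libraries 1 to 4 and 0.989, 0.960, 0.962 and 0.800 in untreated libraries 1 to 4, without overlap. Hyal1 and Hyal2 were thus near parity per length in untreated cells, and Hyal2 led in cocktail-treated cells. The level of Has2 over that of Hyal2 was 0.126 ± 0.020 in cocktail libraries and 0.016 ± 0.0026 in untreated libraries (SD, n = 4 each), so that synthase RNA stayed below hyaluronidase RNA in both groups.

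Cd44, the receptor, was the most abundant of the 8 genes in both groups. It had 214, 213, 227 and 220.5 FPKM in cocktail libraries 1 to 4, against 33.5, 34.0, 34.8 and 36.0 FPKM in untreated libraries 1 to 4. The groups were far apart and the libraries within each close together, at 218 ± 6.55 FPKM in cocktail libraries and 34.6 ± 1.11 FPKM in untreated libraries (SD, n = 4 each). The log2 change was 2.63 (SE 0.031, limma adjusted p = 3.8e-14), or 6.32-fold in mean FPKM. By mean FPKM Cd44 ranked 201 of the 21878 listed genes in cocktail-treated cells and 1933 in untreated cells. Its rise was number 60 by size among all 11845 tested genes, and 0.583% of them had a larger change in either direction.

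Cd44 is also expressed by microglia and other leukocytes. In cocktail libraries 1 and 2, whose microglial sums of 48.1 and 47.6 FPKM were below those of all untreated libraries, Cd44 stood at 214 and 213 FPKM. With these libraries alone the log2 change of Cd44 was 2.59 (limma, adjusted p = 6.6e-12), and with libraries 3 and 4 alone 2.66 (limma, adjusted p = 7.7e-12). Among fibroblast markers, cells that also carry CD44, 3 were called higher and 4 lower of 9 tested, against 26.6% called higher and 41.1% lower among all tested genes. Lum stood at 7.69 ± 1.03 FPKM in cocktail libraries and 0.237 ± 0.063 FPKM in untreated libraries, Dcn at 8.31 ± 2.58 FPKM in cocktail and 1.45 ± 0.146 FPKM in untreated libraries, and Pdgfra at 3.07 ± 0.155 FPKM in cocktail and 0.934 ± 0.111 FPKM in untreated libraries (SD, n = 4 each). Lum, Dcn and Pdgfra were the 3 called higher, and Lum entered the test only through the cocktail libraries. Pdgfra reached 1 FPKM in untreated library 3 alone among the untreated libraries. Col1a1, Col1a2, Pdgfrb and Twist1 were the 4 called lower. The summed level of all 10 was 108 to 138 FPKM in cocktail libraries and 139 to 161 FPKM in untreated libraries, and none was at 0 in every library. Neither the part of microglia nor the part of fibroblasts in the change of Cd44 was tested. The gene lies on chromosome 2 from 102811141 to 102901669. FPKM sum over the whole gene, so standard and variant-exon forms of CD44 were not separated.

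Hmmr encodes RHAMM, a hyaluronan-binding protein that organises spindle microtubules in dividing cells. It had 2.73, 2.46, 2.76 and 2.07 FPKM in cocktail libraries 1 to 4, against 7.88, 7.13, 8.001 and 8.19 FPKM in untreated libraries 1 to 4. The groups did not overlap, with means of 2.50 ± 0.321 FPKM in cocktail libraries and 7.80 ± 0.463 FPKM in untreated libraries (SD, n = 4 each). Hmmr fell by 1.33 on the log2 scale (SE 0.069, limma adjusted p = 6.6e-09), 3.12-fold in mean FPKM, on 166 to 224 fragments per cocktail library and 542 to 669 per untreated library. It lies on chromosome 11 from 40701388 to 40733464. The level of Cd44 over that of Hmmr was 78.3 to 107 in cocktail libraries and 4.25 to 4.76 in untreated libraries.

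Hmmr moved in the same direction as the mitotic genes. All 20 genes of a list of mitotic genes were called lower, with a median log2 change of -1.27, against 41.1% called lower among all tested genes and a median of -0.050 over them. Aurkb, the kinase of the chromosomal passenger complex, fell to 3.13 ± 0.259 FPKM in cocktail libraries, against 12.7 ± 1.10 FPKM in untreated libraries (SD, n = 4 each). The proliferation marker Mki67, the ubiquitin-conjugating enzyme gene Ube2c and the spindle midzone gene Prc1 were 3.46-, 3.14- and 3.18-fold lower in cocktail-treated cells. After each gene was centred on its own mean, Hmmr stood at -0.57, -0.68, -0.56 and -0.85 in cocktail libraries 1 to 4, with list medians of -0.55, -0.54, -0.59 and -0.80. In untreated libraries 1 to 4 it stood at 0.68, 0.55, 0.70 and 0.73, with list medians of 0.67, 0.48, 0.72 and 0.66. Hmmr lay inside the range of the 20 genes in each library, and cocktail library 4 was the lowest for both.

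**Figure D2:**
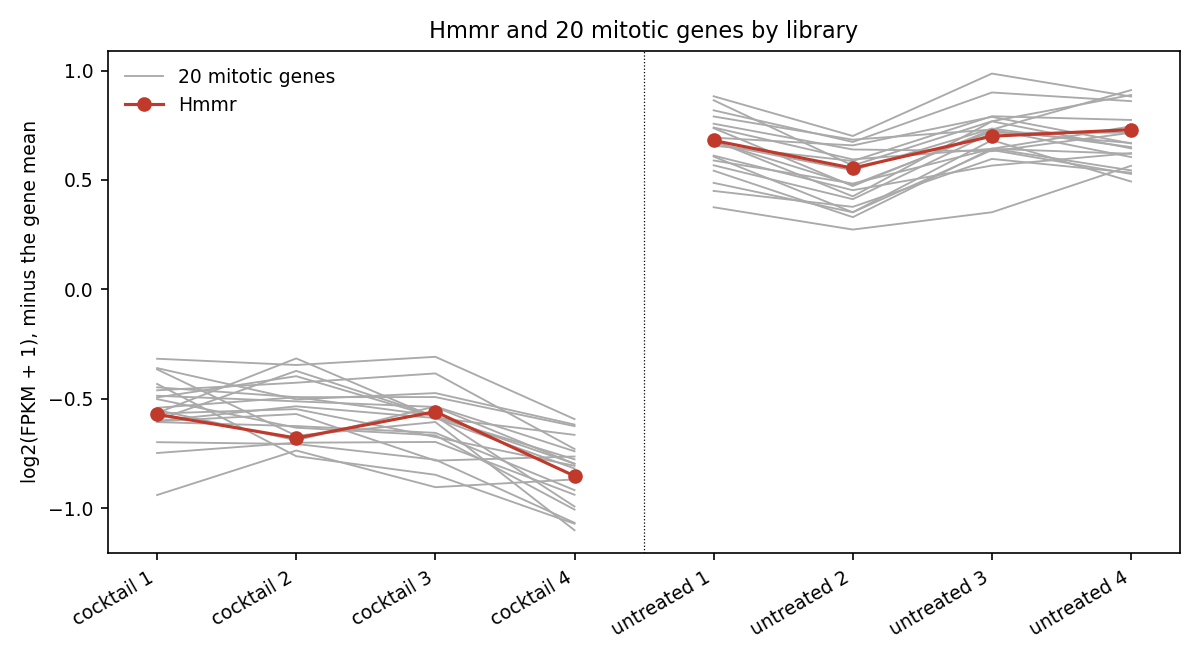
log2(FPKM + 1) minus the mean of the gene over 8 libraries (vertical axis) by library (horizontal axis, replicates in no order), for Hmmr (points) and 20 mitotic genes (grey lines). Hmmr runs inside the grey band, between -0.85 and -0.56 in cocktail libraries and between 0.55 and 0.73 in untreated libraries.

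Tnfaip6 encodes TSG-6, named for its induction by tumor necrosis factor in human fibroblasts. It had 1.24, 1.68, 1.43 and 1.17 FPKM in cocktail libraries 1 to 4, against 1.96, 1.40, 2.24 and 2.03 FPKM in untreated libraries 1 to 4. Cocktail libraries 2 and 3 were above untreated library 2, so the groups overlapped. The mean was 1.38 ± 0.228 FPKM in cocktail libraries and 1.91 ± 0.359 FPKM in untreated libraries (SD, n = 4 each), 1.38-fold lower, on 38 to 52 fragments per cocktail library and 43 to 72 per untreated library.

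The log2 change of Tnfaip6 was -0.28 (SE 0.097, limma adjusted p = 0.021). This call was not stable. It was lost without cocktail library 1 (limma, adjusted p = 0.055), cocktail library 4 (0.056), untreated library 3 (0.067) or untreated library 4 (0.052), and also with voom (0.067). No setting that was run gave a rise of Tnfaip6. The gene lies on chromosome 2 from 52038113 to 52056681.

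**Figure D3:**
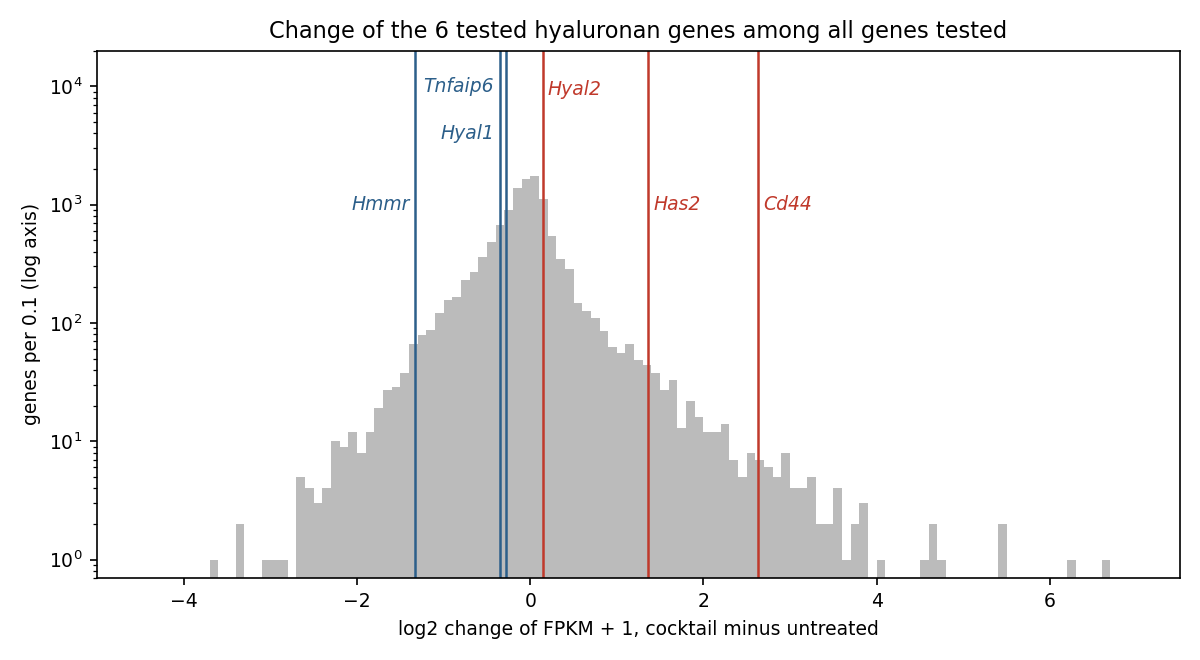
Number of tested genes (vertical log axis, bins of 0.1) by log2 change of FPKM + 1, cocktail minus untreated (horizontal axis), with lines at the 6 tested hyaluronan genes. Cd44 at 2.63 lies in the upper tail, Has2 at 1.36 and Hmmr at -1.33 in the flanks, and Hyal2 at 0.14, Tnfaip6 at -0.28 and Hyal1 at -0.35 in the bulk of 11845 genes.

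For each tested gene the 3 most similar patterns over the 8 libraries were taken by the root mean square distance between centred log2(FPKM + 1) profiles, which is mainly set by the size of the group difference. For Cd44 these were Crispld2, Bcl3, a nuclear partner of NF-kB, and Tlr2, at distances of 0.058, 0.066 and 0.069 against a median of 1.34 over all genes. For Has2 they were Gcnt2, Gap43, a growth cone protein gene, and Trex1, a DNA exonuclease gene, at 0.060, 0.064 and 0.064. The nearest to Hmmr were Kif15, a mitotic kinesin, and C330027C09Rik, at 0.043 and 0.049. Hyal1 lay nearest to Pomgnt2, Bbip1 and Pms2, Hyal2 to Dcbld2, Sdhaf2 and Polm, and Tnfaip6 to Apoo, Usp46 and Prps2. For Tnfaip6 the distances were 0.057 to 0.084, against a median of 0.225 over all genes.

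Genes that work with the 8 were taken from 6 lists of 85 genes in all, of which 66 were tested, 21 called higher and 36 lower. The shares to read all list counts against are 26.6% called higher and 41.1% lower among all tested genes, 67.7% in all. Mmp9 and Hapln4 entered the test only through the cocktail libraries, and 1 mitotic gene only through the untreated libraries. Without the 20 mitotic genes the calls were mixed in each list. Among 10 genes of sugar precursor supply 4 rose and 2 fell, or 6 of 10 against 67.7% of all tested genes, with a median of 0.12. Gfpt2, which makes glucosamine phosphate for the hyaluronan precursor, rose 1.92-fold, while Ugp2 and Ugdh, which lead to UDP-glucuronic acid, were 2.24- and 1.39-fold lower in cocktail-treated cells. Gfpt1 rose 1.12-fold.

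Of 5 other tested degrading enzymes 1 rose and 3 fell, against 26.6% and 41.1% of all tested genes. Cemip, which encodes an extracellular hyaluronan depolymerization factor, stood at 31.4 ± 2.51 FPKM in cocktail libraries and 73.8 ± 4.79 FPKM in untreated libraries (SD, n = 4 each; limma, adjusted p = 2.9e-09). Tmem2, now named Cemip2, a cell surface hyaluronidase gene, stood at 23.5 ± 0.501 FPKM in cocktail libraries and 13.7 ± 0.415 FPKM in untreated libraries (SD, n = 4 each; limma, adjusted p = 1.6e-09). Hexa, which encodes a subunit of a lysosomal hexosaminidase, was 1.33-fold lower in cocktail-treated cells. Cemip and Tmem2 were both above Hyal1 and Hyal2 in mean level in cocktail-treated cells, and Cemip over Tmem2 was 1.25 to 1.45 in cocktail libraries and 4.99 to 5.79 in untreated libraries.

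TSG-6 moves heavy chains of inter-alpha-trypsin inhibitors onto hyaluronan, and pentraxin 3, from Ptx3, crosslinks them. Of 10 tested matrix and linker genes 4 rose and 6 fell, against 26.6% and 41.1% of all tested genes, with a median of -0.57. Ptx3 was 13.2-fold higher in cocktail-treated cells, and its log2 change of 3.71 on the log2(FPKM + 1) scale was the largest among the tested genes of the list. Itih5 stood at 41.3 ± 3.19 FPKM in cocktail libraries and 14.3 ± 1.154 FPKM in untreated libraries (SD, n = 4 each), and Itih3 at 7.81 ± 0.453 FPKM in cocktail libraries and 25.8 ± 2.21 FPKM in untreated libraries. Versican, from Vcan, rose 2.40-fold, while neurocan, from Ncan, was 2.63-fold lower.

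Among 5 other tested genes of hyaluronan receptors or binding proteins 4 rose and 1 fell, with a median of 0.30. The shares among all tested genes were 26.6% and 41.1%. Tlr2, a sensor of hyaluronan pieces and of bacterial lipoproteins, rose 6.12-fold, Layn 1.65-fold and Tlr4 1.35-fold, while Habp4 was 1.73-fold lower. Of 16 tested CD44 partners, ligands and sheddases 8 rose and 4 fell, against 26.6% and 41.1% of all tested genes, with a median of 0.28. Cd74, which pairs with CD44 as a receptor, rose 8.07-fold, Spp1, the ligand osteopontin, 4.42-fold and Egfr 2.98-fold. Mmp9, a protease docked by CD44, had 4.86 to 5.70 FPKM in cocktail libraries and 0.103 to 0.243 FPKM in untreated libraries, and like Has2 it entered the test only through the cocktail libraries. Of the linkers of CD44 to actin, named after their values were seen, Ezr was 1.67-fold lower, and Msn had 199 ± 2.71 FPKM in cocktail libraries and 204 ± 8.07 FPKM in untreated libraries (SD, n = 4 each; limma, adjusted p = 0.32).

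**Figure D4:**
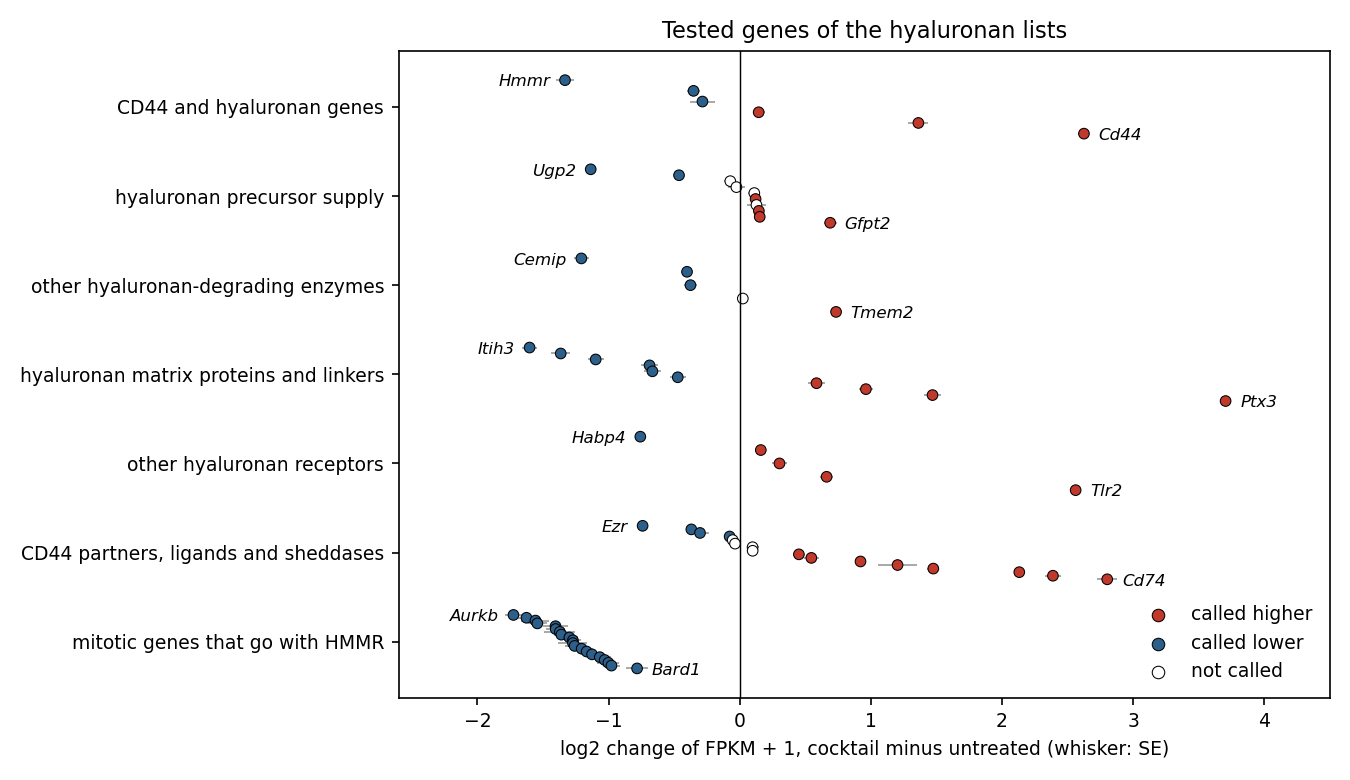
log2 change of FPKM + 1, cocktail minus untreated (horizontal axis), with standard errors for the tested genes of the hyaluronan group and of 6 lists of related genes (rows), coloured by call. The extremes of each row are named. The 20 mitotic genes lie on the lower side with Hmmr, and the other lists hold genes on both sides, from Itih3 at -1.60 to Ptx3 at 3.71.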

How the data were processed

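The members and the lists were chosen with earlier results of these data known. The authors deposited FPKM for 21878 genes. Per the labels' protocols, TRIzol was used to extract RNA, and the library kit was a stranded one for mRNA. The labels do not say whether counting used strand. Per the submitters' processing notes, DESeq and the build mm10 were used. The aligner and the counter were not given in these sources. Libraries were grouped by title, since the treatment labels of 3 cocktail libraries spell C1q with other digits. Ratios of a gene's FPKM between libraries were whole-number fractions (relative tolerance 1e-8). From them the fragments of 16557 genes and the library totals were recovered.

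The main test was limma, with a variance trend and no covariate, on log2(FPKM + 1) of the genes that reached 1 FPKM in 4 or more libraries (limma version 3.58.1 under R 4.3.3). Alternatives were a pseudocount of 0.1, other filters, median-ratio rescaling, no trend, a replicate block, voom on recovered fragments with TMM scaling, and libraries left out. The test and the recovery were tested on simulated data. All 8 members were named, the 4 called genes with the largest change in each list, known partners at 1 FPKM or more, and the 3 genes with the most similar pattern per tested member. Some genes that this rule takes are not reported here. Ezr, Msn, Hapln1, Hapln4, Itih2 and single cell type markers were added after their values were seen. RefSeq held 21727 of the 21878 genes by NCBI gene number, and the list gene Cemip2 was matched in this way as Tmem2.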

Additional observations from a re-analysis of the deposited data

Results flagged for a closer look

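Over 32 genes, the 8 members and 24 named partners, 62 groups of 4 libraries with any spread were searched for a library far from the other 3, and 4 were found. Chance alone gives about 1 in 20. Among the members, Hyal2 in untreated library 4 stood at 17.2 FPKM, with the other untreated libraries at 15.4 to 15.7 FPKM. It is the one untreated library above the lowest cocktail library, at 16.7 FPKM.

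Ugp2 in cocktail library 3 stood at 29.0 FPKM, with the others at 25.5 to 25.8 FPKM. Tlr2 in cocktail library 3 stood at 148 FPKM, with the others at 139 to 140.2 FPKM. Gfpt1 in untreated library 1 stood at 15.5 FPKM, with the others at 16.4 to 16.6 FPKM.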

How the results depend on the processing

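Cd44, Has2, Hyal1 and Hmmr kept their direction and their call under every alternative that could be fitted to them. With one library left out in turn, the log2 change of Cd44 was 2.61 to 2.64, of Has2 1.32 to 1.42, of Hyal1 -0.38 to -0.33, of Hyal2 0.12 to 0.18, of Hmmr -1.37 to -1.27 and of Tnfaip6 -0.37 to -0.23. Tnfaip6 was not called with cocktail libraries 3 and 4 left out (-0.24, adjusted p = 0.11), with voom (-0.40, adjusted p = 0.067) or with voom and no filter (-0.39, adjusted p = 0.099), and Hyal2 was not called with cocktail libraries 3 and 4 left out (0.14, adjusted p = 0.055). The cause was not tested. Has3, not called without the filter (0.026, adjusted p = 0.19), was called by voom with no filter (1.57), and it had no value under the other settings, nor had Has1 under any, nor Has2 and Tnfaip6 with a mean of at least 5 FPKM. Genes called higher numbered 3151, 3504 with limma and no filter, 4039 with voom and 4763 with voom and no filter. Voom without a filter was chosen after seeing the data. Median-ratio rescaling moved the median of all genes to 0.017, against -0.050 as deposited. The labels do not say whether replicate numbers pair the libraries, and weak correlations do not settle it. The correlation of deviations between same-numbered libraries was -0.044, 0.078, 0.086 and -0.0071. Cocktail libraries 2 and 3 correlated best with the untreated library of their own number, and cocktail libraries 1 and 4 did not. With the replicate block 3121 genes were called higher and 4829 lower, and no call of a member was lost. Fragments limit Has3 and Has1 most.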

Other observations

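In the annotation column of the deposited table, 49 genes carry a gene ontology term that names hyaluronan, all 8 members among them. Of these 49 genes 25 were tested, 14 were called higher and 11 lower, against 26.6% and 41.1% of all tested genes, with a median log2 change of 0.087. The 25 include the 6 tested members described above. Has2 and Hapln4, among those called higher, entered the test only through the cocktail libraries. Hapln1, a link protein that fixes proteoglycans to hyaluronan, did not reach the filter, and had 0.046 ± 0.0083 FPKM in cocktail libraries and 0.644 ± 0.095 FPKM in untreated libraries (SD, n = 4 each), with no overlap. Itih2, which encodes a heavy chain that TSG-6 transfers, was near 0 in both groups, at 0.152 ± 0.055 FPKM in cocktail libraries and 0.150 ± 0.076 FPKM in untreated libraries (SD, n = 4 each).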
